A study of Mus musculus with 8 samples.

Results

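The genes described here encode proteins of the complement and blood coagulation systems. They are a fixed list of 38 genes, 20 of complement and 18 of coagulation, found on the arrays through the probes' accessions, matched to gene symbols. All 38 had a probe well above background on all 8 arrays, among 20165 features measured in all. RNA of whole liver came from male C57BL/6 mice bought at 5 weeks of age and divided into weight-matched groups. High-fat diet (HFD, 58% fat, 5.2 kcal per g) was eaten for 3 months or for 9 months, and normal diet (ND, 4.8% fat, 3.8 kcal per g) for 3 months or for 9 months, freely. Each of the 4 groups held 2 mice, with 1 array per mouse. The description of ND 3 months replicate 1 names NASH (fatty liver inflammation), while its other labels give normal diet, by which it was grouped. The animals were of 1 sex, and whole liver holds hepatocytes together with macrophages, endothelial, stellate and blood cells. Less RNA per cell and fewer cells of a type therefore cannot be told apart.

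Most proteins of both systems are made by hepatocytes and secreted into the blood as inactive precursors. Complement is set off by the C1 complex (classical pathway), by sugar-binding lectins (lectin pathway) or by C3 itself with factor B (alternative pathway). The pathways meet at C3 and end in the membrane attack complex, a pore built of C5b, C6, C7, C8 and C9. Coagulation runs through a cascade of proteases to thrombin, which turns fibrinogen into fibrin. Antithrombin, protein C and heparin cofactor II restrain it, and plasmin dissolves the clot. C1q is an exception in that macrophages are its main source.

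Levels below are log2 signals relative to the 75th percentile of the array, so that 0 stands for a signal equal to that percentile. They compare arrays for 1 gene, not genes with each other. Changes are log2 fold changes ± SE from limma, HFD over ND or 9 over 3 months, and a gene was called at an adjusted p (Benjamini-Hochberg over all features) under 0.05. All HFD arrays lay on 1 slide and all ND arrays on the other, so diet and slide cannot be told apart in any value below that compares diets. HFD 9 months replicate 2 was the dimmest array (75th percentile of 185, against 368 to 428 on the other HFD arrays and 482 to 597 on the ND arrays). ND 9 months replicate 1 had the highest summed level of macrophage markers. The median gap between the 2 arrays of a group over the 38 genes was 0.50 in HFD 9 months, 0.20 in HFD 3 months, 0.21 in ND 9 months and 0.10 in ND 3 months.

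Few of the 38 genes passed the test. At 3 months C8b, a subunit gene of the membrane attack complex, fell on HFD, which makes 2.63% of the genes, against 5.18% of all features called, 1.51% higher and 3.67% lower. An unadjusted p under 0.05 was found for 7 of 38 at 3 months (26.3% of all features). At 9 months limma called 0 of 38, against 8.28% of all features (3.56% higher and 4.73% lower), and 7 of 38 had an unadjusted p under 0.05 (28.7% of all features). Averaged over both durations, C6, C8b and the lectin pathway protease gene Masp1 fell on HFD and Cfb, which encodes factor B, rose. These 4 genes are 10.5% of the list, against 22.1% of all features, 10.3% higher and 11.8% lower. An unadjusted p under 0.05 was found for 12 of 38, against 38.8% of all features. Among coagulation genes 0 of 18 were called between diets by limma, and their unadjusted p was under 0.05 for 2 at 3 months, 3 at 9 months and 5 over both durations. The 0 of 18 depended on the setting, and the share of all features called in other settings is not given here. Over both durations limma called Cpb2 and F13b higher under quantile normalization and Cpb2 under normexp background correction. In the authors' deposited table of values it called Cpb2, F13b and F9 higher. Cpb2 was also called higher at 9 months under normexp and in that table. Trend and robust moderation and array weights gave calls in both directions. The calls also depended on HFD 9 months replicate 2, the dimmest array. Without it the median change of the 18 over both durations was -0.35, against -0.25 with all arrays. In the reported fits of all 8 arrays, the share of the 38 genes that passed was below that of all features at 3 months, at 9 months and over both durations.

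More genes had arrays that did not overlap between diets than passed the test. At 3 months both HFD arrays lay above both ND arrays for 8 genes and below for 23, where 71% of all features did not overlap (35.6% above and 35.4% below). At 9 months they lay above for 9 genes and below for 8, against 54.6% of all features (28.5% above and 26.1% below). Over both durations all 4 HFD arrays lay above all 4 ND arrays for Cfb and C4bp and below for C6, C8b, F12 and Serpinc1, against 25.5% of all features (11.5% above and 14% below).

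**Figure D1:**
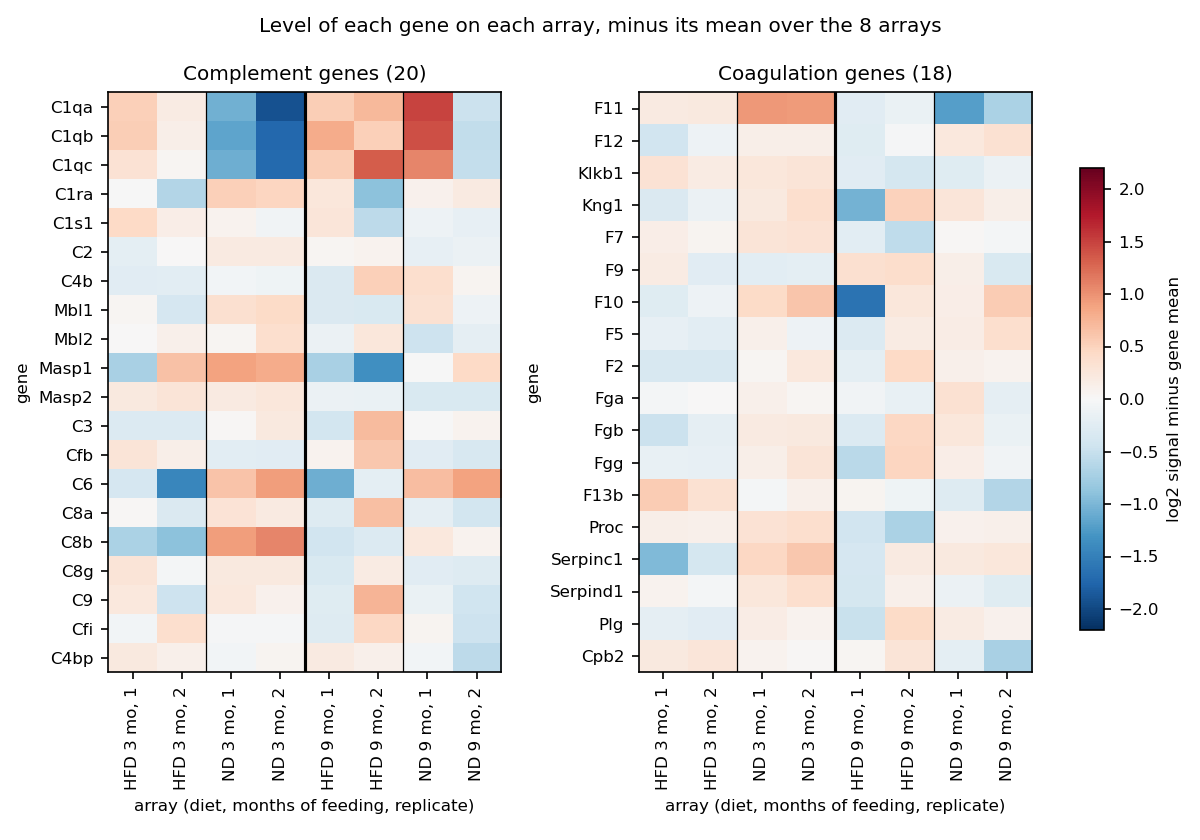
Level of the 20 complement genes (left) and 18 coagulation genes (right) on each of the 8 arrays, as log2 signal minus the gene's own mean over the arrays. Red is above and blue below the mean. C6 and C8b are blue on the HFD arrays and the 3 C1q genes are bluest on the ND arrays of 3 months.

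**Figure D2:**
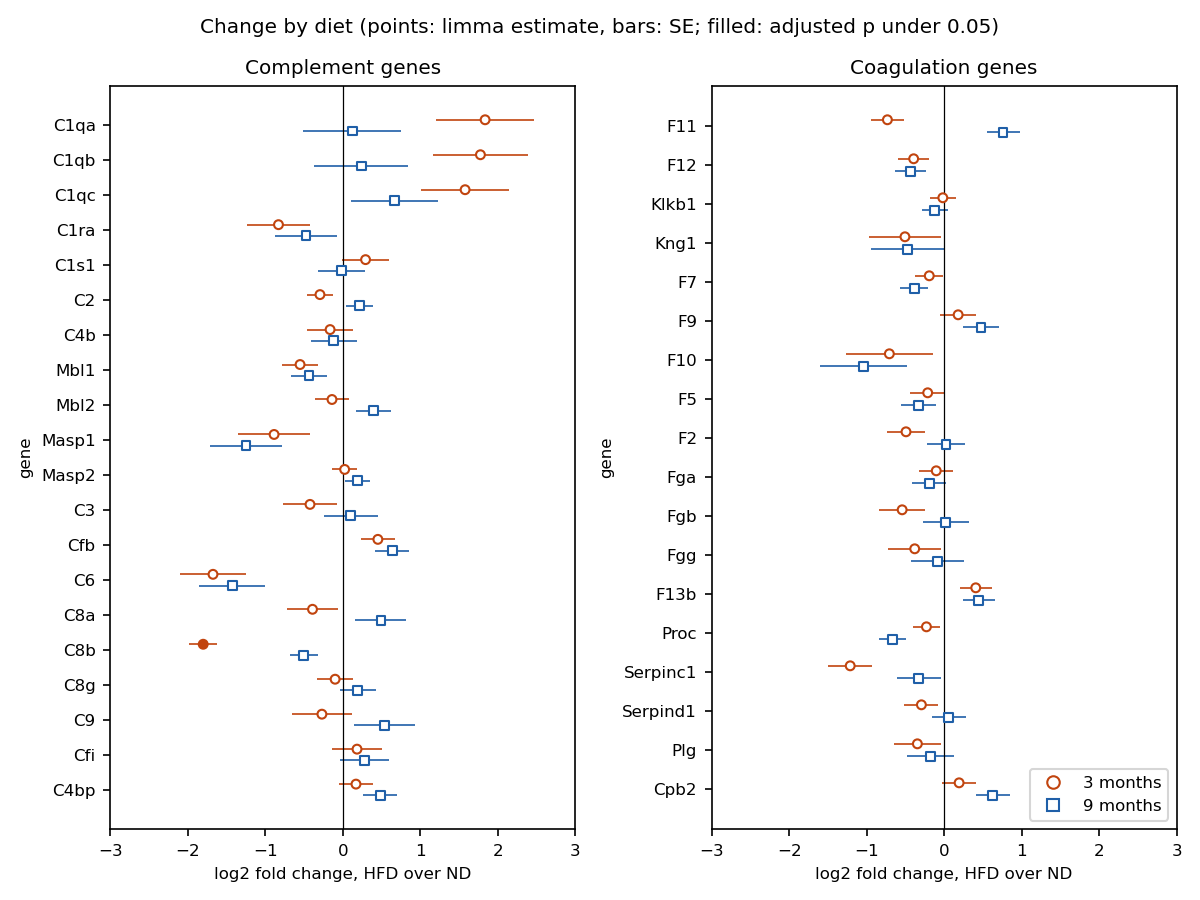
Log2 fold change, HFD over ND, of each gene at 3 months (circles) and at 9 months (squares), with bars for the SE of the limma fit (n = 2 mice per group). The filled circle is C8b at 3 months (-1.80), which passed at an adjusted p under 0.05, while open symbols did not pass.

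In the membrane attack complex C6 and C8b were low on HFD, and C8a, C8g and C9 were not called. C8b encodes the beta chain of C8, which binds the complex of C5b, C6 and C7. Its level was 4.89 and 4.69 on the HFD arrays of 3 months, against 6.51 and 6.67 on the ND arrays. Its 9-month level was 5.18 and 5.29 on HFD, against 5.82 and 5.66 on ND. All 4 HFD arrays lay below all 4 ND arrays, and the gap was wider at 3 months. The change was -1.80 ± 0.18 at 3 months (3.49-fold lower on HFD, limma adjusted p = 0.00957) and -0.50 ± 0.18 at 9 months (limma adjusted p = 0.132). Over both durations C8b fell by 1.15 ± 0.27 (limma adjusted p = 0.024). The call at 3 months was lost without ND 3 months replicate 1 (-1.88, limma adjusted p = 0.0864) or replicate 2 (-1.72, limma adjusted p = 0.137). The call over both durations was lost without any 1 of the 4 arrays of 3 months, where the change ranged from -1.31 to -0.98 over all 8 arrays left out in turn.

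C6 encodes the protein that stabilises C5b at the start of the pore. On HFD its level was 2.64 and 1.58 at 3 months, against 3.64 and 3.94 on ND. At 9 months it was 1.94 and 2.80 on HFD, against 3.69 and 3.90 on ND. The HFD arrays spread over more than 1 log2 unit, yet each lay below every ND array. The change was -1.67 ± 0.43 at 3 months (limma adjusted p = 0.0748) and -1.42 ± 0.43 at 9 months (limma adjusted p = 0.0916). Over both durations C6 fell by 1.55 ± 0.29, 2.93-fold (limma adjusted p = 0.0116). That call held with each of the 8 arrays left out (-1.75 to -1.31) and in 12 of 12 other settings, among them quantile normalization and the authors' deposited table of values.

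C8a, C8b and C8g encode the chains of C8, and C8a and C8b are next to each other on chromosome 4 with 0 genes between them in the RefSeq table. C8a had 5.92 and 5.59 on HFD, against 6.20 and 6.09 on ND, at 3 months. At 9 months C8a had 5.62 and 6.57 on HFD, against 5.70 and 5.50 on ND. The arrays overlapped at 9 months, and the HFD pair differed by more than the diets did. C8g, whose chain is a lipocalin, had 8.86 and 8.54 on HFD, against 8.80 and 8.80 on ND, at 3 months, and 8.25 and 8.77 against 8.34 and 8.30 at 9 months. C9, which forms the ring of the pore, had 3.74 and 3.05 on HFD, against 3.74 and 3.59 on ND, at 3 months, and 3.24 and 4.25 against 3.35 and 3.07 at 9 months. The changes of C8a, C8g and C9 lay between -0.39 and 0.54 at the 2 durations, and their smallest limma adjusted p there was 0.37. The neighbours C8a and C8b thus had changes of -0.39 ± 0.33 and -1.80 ± 0.18 at 3 months.

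**Figure D3:**
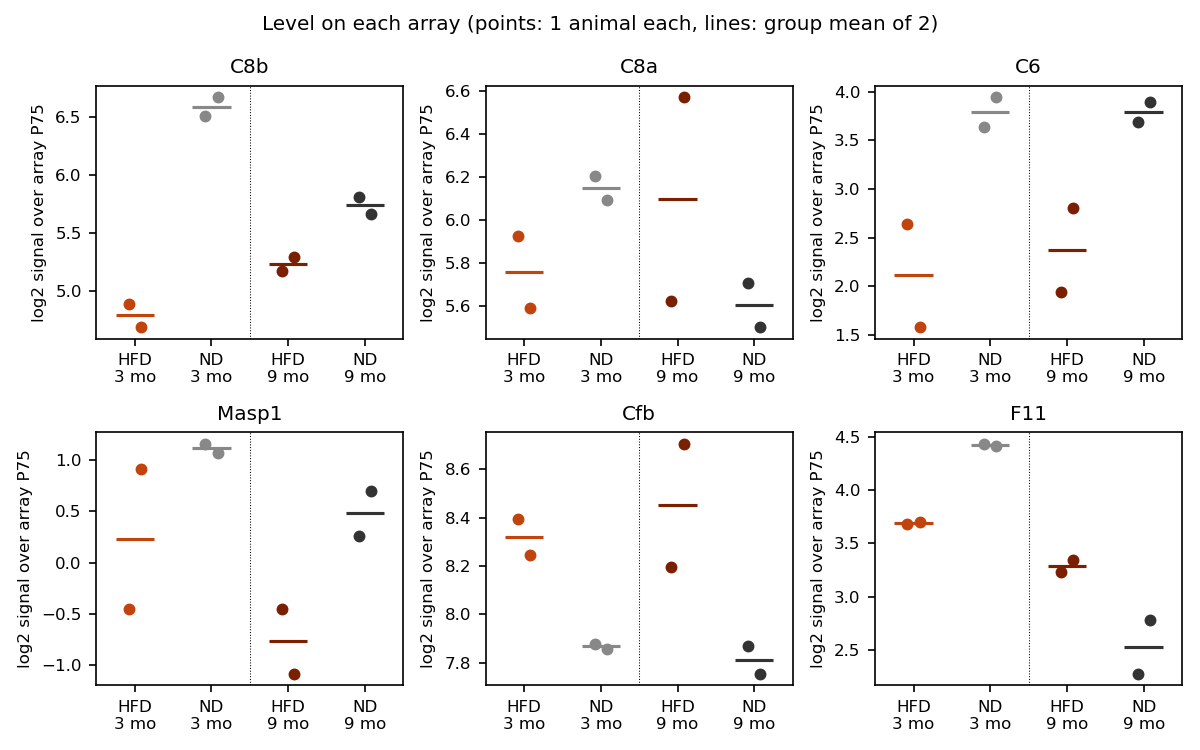
Level of the genes called in any comparison (C8b, C6, Masp1, Cfb and F11) and of C8a, the neighbour of C8b, on each array. Points are single mice, lines are group means of 2, each panel has its own vertical scale that does not start at 0, and the dotted line parts 3 from 9 months. C6 and C8b have no overlap between HFD and ND, and F11 is highest on ND at 3 months and lowest on ND at 9 months.

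The promoters of the called membrane attack genes and of C8a are shown because neighbouring genes had unlike values, and cover 250 bases before to 50 after the start in RefSeq's GRCm38.p6. Capitals mark matches to GTTAAT (a core of the site of HNF1, a hepatocyte transcription factor) or TTCNNNGAA (STAT factors) on either strand.
C8b (chr4:104766067-104766366, plus strand): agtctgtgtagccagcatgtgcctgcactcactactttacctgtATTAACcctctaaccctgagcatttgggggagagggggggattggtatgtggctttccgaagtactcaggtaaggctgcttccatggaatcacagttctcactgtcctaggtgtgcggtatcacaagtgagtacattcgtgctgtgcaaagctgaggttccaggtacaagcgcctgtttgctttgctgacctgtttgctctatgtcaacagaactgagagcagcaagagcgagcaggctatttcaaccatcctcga
C8a (chr4:104876349-104876648, minus strand): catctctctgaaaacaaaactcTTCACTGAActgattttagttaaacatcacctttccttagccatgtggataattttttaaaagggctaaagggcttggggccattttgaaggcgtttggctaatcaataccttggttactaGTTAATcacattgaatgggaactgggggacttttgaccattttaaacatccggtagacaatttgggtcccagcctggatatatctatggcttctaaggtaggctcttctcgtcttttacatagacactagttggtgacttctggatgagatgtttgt
C6 (chr15:4726960-4727259, plus strand): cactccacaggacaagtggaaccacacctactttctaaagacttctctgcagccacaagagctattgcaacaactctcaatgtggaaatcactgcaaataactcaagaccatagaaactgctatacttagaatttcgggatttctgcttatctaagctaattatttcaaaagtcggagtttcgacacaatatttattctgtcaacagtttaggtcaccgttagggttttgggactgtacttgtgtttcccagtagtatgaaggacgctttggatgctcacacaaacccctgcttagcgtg
C8b and C8a each hold 1 match to the HNF1 core, C8a also 1 STAT match, and C6 has 0 matches to these motifs or to those searched further on.

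The initiators of the classical pathway were higher on HFD at 3 months in mean level, without passing the test. C1qa, C1qb and C1qc encode the 3 chains of C1q, which binds antibody on a target, and lie side by side on chromosome 4. C1qa had 2.12 and 1.76 on HFD, against 0.53 and -0.32 on ND, at 3 months, and 2.14 and 2.31 against 3.08 and 1.12 at 9 months. C1qb had 2.19 and 1.77 on HFD, against 0.49 and -0.08 on ND, at 3 months, and 2.47 and 2.18 against 3.06 and 1.12 at 9 months. C1qc had 3.64 and 3.36 on HFD, against 2.24 and 1.60 on ND, at 3 months, and 3.86 and 4.66 against 4.40 and 2.79 at 9 months. At 3 months both HFD arrays lay above both ND arrays for each gene, as for 35.6% of all features, and at 9 months the 2 ND arrays lay far apart. The changes at 3 months were 1.84 ± 0.63, 1.78 ± 0.61 and 1.58 ± 0.56 for C1qa, C1qb and C1qc (limma adjusted p = 0.137, 0.136 and 0.146). At 9 months they were 0.12, 0.24 and 0.67. With only the arrays of 3 months limma called all 3 higher, which for C1qa and C1qb was 1 of 12 other settings. Whether C1qa and C1qb passed at 3 months also depended on the ND arrays of 9 months, which share the estimate of spread. Over both durations, whether the 3 genes passed depended on ND 9 months replicate 1. With an array left out, the change at 3 months ranged from 1.41 to 2.26 for C1qa and from 1.49 to 2.06 for C1qb. Over both durations that of C1qc ranged from 0.89 to 1.53. Without ND 9 months replicate 2 the change of C1qc at 9 months was -0.14.

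Markers of macrophages and Kupffer cells, the resident macrophages of liver, had values alongside the C1q genes. Of the 18 markers measured of 20 listed, 17 were higher on HFD at 3 months (median change 1.59) and 12 at 9 months (median 0.52). Their summed level was 7.30 and 7.11 on HFD, against 6.47 and 6.11 on ND, at 3 months. At 9 months it was 7.52 and 7.98 on HFD, against 8.83 and 7.16 on ND. No marker was listed at 0, and Ccr2 and Gpnmb, 2 of the markers, were well above background on 3 of 8 arrays each. The order of the ND arrays was the same for the markers and for each C1q gene, but over all 8 arrays the orders differed. ND 9 months replicate 2 had a higher marker sum (7.16) than HFD 3 months replicate 2 (7.11), yet a lower level of each C1q gene. The part of macrophage content in the C1q values was not tested.

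**Figure D4:**
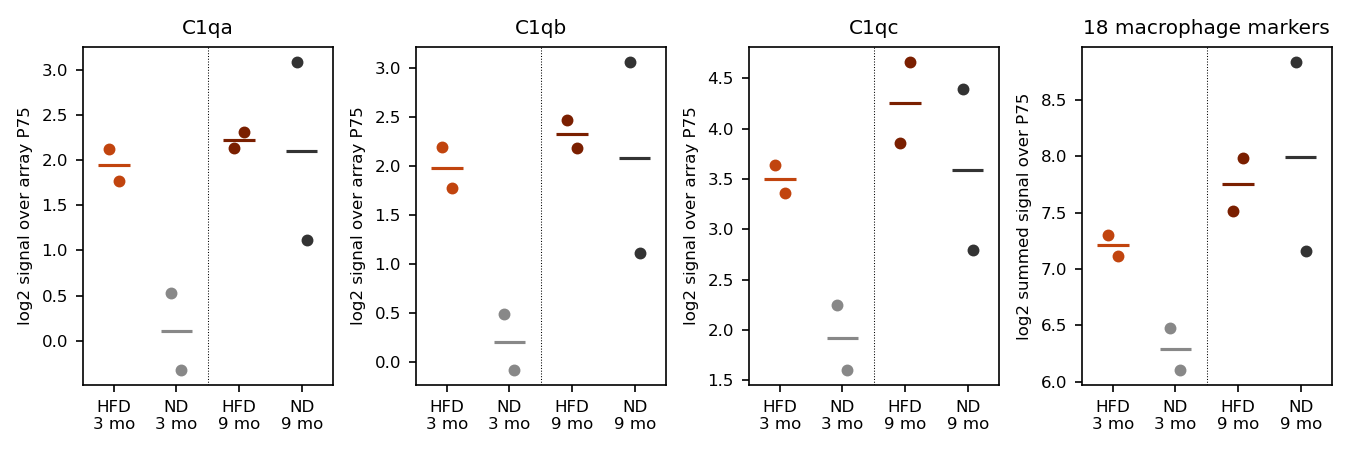
Level of C1qa, C1qb and C1qc and summed level of 18 macrophage and Kupffer cell markers on each array (points are mice, lines group means of 2, vertical scales differ and do not start at 0). On ND at 3 months all 4 are lowest, and on ND at 9 months the 2 mice lie apart, with replicate 1 at 8.83 for the markers and replicate 2 at 7.16.

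Promoters of C1qb and C1qc are shown because the genes lie side by side and encode chains of 1 protein, with capitals for GAGGAAGT, a site of the myeloid factor PU.1, on either strand.
C1qb (chr4:136886151-136886450, minus strand): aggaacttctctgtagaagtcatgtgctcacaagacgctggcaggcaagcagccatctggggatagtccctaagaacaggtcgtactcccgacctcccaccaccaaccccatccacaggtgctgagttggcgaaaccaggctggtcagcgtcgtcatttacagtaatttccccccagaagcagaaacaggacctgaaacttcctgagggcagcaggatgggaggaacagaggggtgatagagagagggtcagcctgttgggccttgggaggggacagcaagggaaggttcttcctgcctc
C1qc (chr4:136892865-136893164, minus strand): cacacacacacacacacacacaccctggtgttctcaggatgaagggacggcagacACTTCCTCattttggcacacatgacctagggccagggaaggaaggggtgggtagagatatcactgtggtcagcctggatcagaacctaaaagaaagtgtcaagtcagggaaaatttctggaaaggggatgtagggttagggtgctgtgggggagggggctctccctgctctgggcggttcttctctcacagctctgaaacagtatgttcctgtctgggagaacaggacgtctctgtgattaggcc
C1qc holds 1 match and C1qb 0, and the motif occurs in 3.28% of 27025 mouse promoters of the same length.

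The other classical pathway genes are those of the C1 proteases and their substrates, and 0 of 4 were called. C1ra, whose product activates C1s, had 6.08 and 5.44 on HFD, against 6.62 and 6.56 on ND, at 3 months. Its change there was -0.83 ± 0.40 (limma adjusted p = 0.246), and another probe of the gene gave 0.07. C1s1, listed as C1s, encodes the protease that cuts C4 and C2, and had changes of 0.29 ± 0.30 at 3 months and -0.01 ± 0.30 at 9 months. C4b, the mouse C4 gene, had changes of -0.16 ± 0.30 and -0.12 ± 0.30. C4b, C1ra, C1s1 and Kng1 have near-identical relatives (C4a, C1rb, C1s2 and Kng2) whose RNA the probes may also bind, so their values are uncertain. C2, the catalytic part of the C3 convertase, had 5.70 and 5.91 on HFD, against 6.10 and 6.10 on ND, at 3 months, and 5.95 and 5.99 against 5.72 and 5.78 at 9 months. C2 thus lay lower on both HFD arrays at 3 months and higher on both at 9 months, with changes of -0.29 ± 0.17 and 0.21 ± 0.17 that did not pass.

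In the lectin pathway Masp1, the protease that first activates the lectin complex, was called lower and the other 3 genes were not. Masp1 had -0.46 and 0.91 on HFD, against 1.16 and 1.07 on ND, at 3 months. Masp1 at 9 months had -0.45 and -1.08 on HFD, against 0.26 and 0.70 on ND. The HFD arrays lay below the ND arrays within each duration, but 1 HFD array of 3 months (0.91) lay above both ND arrays of 9 months. Over both durations Masp1 fell by 1.07 ± 0.32, 2.10-fold (limma adjusted p = 0.0489). The call was kept in 1 of 8 cases with an array left out, the one without HFD 3 months replicate 2, and the limma adjusted p ranged from 0.013 to 0.127. The call over both durations was kept in 8 of 12 other settings. It ended under quantile normalization (-1.08, limma adjusted p = 0.0528), with no filter on dim probes and with the replicate block. It also ended without both 9-month arrays that stood apart (-0.98). Under normexp and in the authors' deposited table limma also called Masp1 lower at 9 months.

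The mannose-binding lectins Mbl1 and Mbl2 recognise microbial sugars. Mbl1 had 3.74 and 3.32 on HFD, against 4.05 and 4.11 on ND, at 3 months, and 3.38 and 3.35 against 4.02 and 3.58 at 9 months. Mbl2 had 8.44 and 8.54 on HFD, against 8.46 and 8.80 on ND, at 3 months, and 8.30 and 8.67 against 7.96 and 8.23 at 9 months. Mbl1 was lower on HFD within each duration, with a change of -0.49 ± 0.16 over both (limma adjusted p = 0.0615), while Mbl2 had a change of 0.13 ± 0.18. These outcomes depended on the setting. Over both durations limma called Mbl2 higher under normexp and in the authors' deposited table. It called Mbl1 lower under quantile normalization and in that table, among other settings. Masp2, which cuts C4 and C2, had changes of 0.02 ± 0.16 at 3 months and 0.19 ± 0.16 at 9 months. Its 2 other probes gave -0.22 and 0.73 at 3 months.

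Cfb rose on HFD and C3 was not called. Factor B is the protease of the alternative pathway's C3 convertase. Cfb had 8.39 and 8.25 on HFD, against 7.88 and 7.86 on ND, at 3 months, and 8.20 and 8.70 against 7.87 and 7.76 at 9 months. All 4 HFD arrays lay above all 4 ND arrays, as for 11.5% of all features. The rise over both durations was 0.55 ± 0.15, 1.46-fold (limma adjusted p = 0.0406). The call was kept in 2 of 8 cases with an array left out, those without HFD 9 months replicate 1 or replicate 2 (limma adjusted p = 0.0317 to 0.106 over the 8). It was lost with no filter on dim probes and with the replicate block. Under quantile normalization, normexp background correction and the authors' deposited table of values limma also called Cfb higher at 3 months and at 9 months.

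C3, the central component on which all pathways converge, had 9.83 and 9.83 on HFD, against 10.16 and 10.35 on ND, at 3 months. At 9 months it had 9.72 and 10.82 on HFD, against 10.12 and 10.21 on ND. The change was -0.42 ± 0.35 at 3 months and 0.10 ± 0.35 at 9 months, where the 2 HFD arrays differed by more than 1 log2 unit. Cfb and C2 are neighbours on chromosome 17, with 0 genes between them, and had changes of 0.45 ± 0.22 and -0.29 ± 0.17 at 3 months. The regulators Cfi, the protease that degrades C3b and C4b, and C4bp, its cofactor, had changes of 0.18 ± 0.32 and 0.17 ± 0.22 at 3 months. At 9 months they had changes of 0.28 ± 0.32 and 0.48 ± 0.22. C4bp lay higher on all 4 HFD arrays than on all 4 ND arrays without passing (0.33 ± 0.16 over both durations, limma adjusted p = 0.172). Under quantile normalization, normexp and the authors' deposited table limma called C4bp higher over both durations.

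Among the coagulation genes the contact system held the member with the widest change over time. F11 encodes factor XI, which activates factor IX. It had 3.68 and 3.70 on HFD, against 4.43 and 4.41 on ND, at 3 months, and 3.23 and 3.34 against 2.28 and 2.78 at 9 months. In each pair of groups the arrays did not overlap, and HFD was the lower diet at 3 months and the higher one at 9 months. The changes by diet were -0.73 ± 0.21 at 3 months (limma adjusted p = 0.0986) and 0.76 ± 0.21 at 9 months (limma adjusted p = 0.0787). On ND at 9 months, against 3 months, F11 fell by 1.89 ± 0.21, 3.72-fold (limma adjusted p = 0.029). On HFD the change was -0.40 ± 0.21 (limma adjusted p = 0.4). The difference between the diets, 1.49 ± 0.30, did not pass (limma adjusted p = 0.372). The call on ND was kept in 2 of 8 cases with an array left out, those without either HFD array of 9 months, and the limma adjusted p reached 0.271 in the others.

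The promoter of F11, minus strand, is shown because F11 was the only gene of the 38 called over time, with capitals for TTGCNNAA, a site of C/EBP liver factors, on either strand.
F11 (chr8:45261982-45262281, minus strand): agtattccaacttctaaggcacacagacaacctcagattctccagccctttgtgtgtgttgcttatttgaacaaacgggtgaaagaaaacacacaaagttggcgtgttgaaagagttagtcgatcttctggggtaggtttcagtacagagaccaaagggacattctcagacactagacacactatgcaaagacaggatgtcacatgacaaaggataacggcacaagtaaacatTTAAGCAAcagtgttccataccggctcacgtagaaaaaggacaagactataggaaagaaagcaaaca
Klkb1, which encodes plasma prekallikrein and is the neighbour of F11 on chromosome 8, also holds the C/EBP motif, found in 10.8% of all promoters.

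Klkb1 had changes of -0.02 ± 0.17 at 3 months and -0.12 ± 0.17 at 9 months by diet. F12, the factor XII gene that starts the contact system, was lower on all 4 HFD arrays than on all 4 ND arrays. It had 6.77 and 7.09 on HFD, against 7.32 and 7.32 on ND, at 3 months, and 6.92 and 7.17 against 7.43 and 7.54 at 9 months. The change over both durations was -0.41 ± 0.13 (limma adjusted p = 0.0628). Kng1, the kininogen gene, had 9.18 and 9.37 on HFD, against 9.70 and 9.86 on ND, at 3 months, and 8.45 and 9.99 against 9.76 and 9.62 at 9 months. At 9 months its change was -0.47 ± 0.47, and without HFD 9 months replicate 2 limma called Kng1 lower there. Another probe of Kng1 gave 0.06 at 3 months and -0.01 at 9 months.

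Of the 5 genes for the steps from factors VII and IX to thrombin, 0 were called by limma in the reported fits. F10, which encodes the protease that makes thrombin, had 9.05 and 9.20 on HFD, against 9.74 and 9.93 on ND, at 3 months. At 9 months it had 7.70 and 9.56 on HFD, against 9.47 and 9.87 on ND. The 2 HFD arrays of 9 months differed by more than any pair of the other groups, and the change there was -1.04 ± 0.56 (limma adjusted p = 0.274). It was -1.97 without HFD 9 months replicate 2 (limma adjusted p = 0.0156) and -0.11 without replicate 1. Another probe of F10 gave 0.05 at 9 months and -0.83 at 3 months. F2, the prothrombin gene, had 8.56 and 8.55 on HFD, against 8.96 and 9.14 on ND, at 3 months, a change of -0.49 ± 0.25, and had a change of 0.02 ± 0.25 at 9 months. F7, whose protein pairs with tissue factor, had changes of -0.19 ± 0.18 and -0.39 ± 0.18. F9, the haemophilia B gene, was higher in mean, by 0.18 ± 0.24 and 0.47 ± 0.24. F5, the cofactor of factor X, had changes of -0.21 ± 0.23 and -0.33 ± 0.23, while its other probe gave 0.79 and 0.34.

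The 3 fibrinogen genes lie together on chromosome 3 and 0 were called. Fga had 6.00 and 6.06 on HFD, against 6.16 and 6.10 on ND, at 3 months, and 5.96 and 5.88 against 6.38 and 5.85 at 9 months. Fgb had 8.74 and 9.03 on HFD, against 9.41 and 9.44 on ND, at 3 months, and 8.93 and 9.67 against 9.47 and 9.08 at 9 months. Fgg had 9.37 and 9.36 on HFD, against 9.68 and 9.82 on ND, at 3 months, and 8.96 and 10.01 against 9.68 and 9.47 at 9 months. By these probes all 3 were lower on both HFD arrays at 3 months, by 0.10 to 0.54 in mean, and overlapped at 9 months. Another probe of Fga was higher on both HFD arrays at 3 months (4.09 and 4.24, against 4.04 and 3.93 on ND). It gave changes of 0.18 at 3 months and -0.40 at 9 months. F13b, the carrier subunit of the enzyme that crosslinks fibrin, had 4.58 and 4.35 on HFD, against 3.98 and 4.14 on ND, at 3 months. Its change was 0.41 ± 0.21 at 3 months, 0.45 ± 0.21 at 9 months and 0.43 ± 0.14 over both (limma adjusted p = 0.0664).

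The anticoagulant genes were lower on HFD at 3 months in mean, without passing. Serpinc1 encodes antithrombin, the main inhibitor of thrombin and factor Xa. It had 8.43 and 9.02 on HFD, against 9.87 and 10.003 on ND, at 3 months, and 9.03 and 9.60 against 9.62 and 9.66 at 9 months. The HFD arrays lay below the ND arrays at both durations, with changes of -1.21 ± 0.28 at 3 months (limma adjusted p = 0.0616) and -0.33 ± 0.28 at 9 months. Without either HFD array of 9 months, limma called Serpinc1 lower at 3 months. Proc, the protein C gene, had 8.02 and 7.999 on HFD, against 8.21 and 8.27 on ND, at 3 months, and 7.47 and 7.19 against 7.98 and 8.0003 at 9 months. Its change at 9 months was -0.66 ± 0.18 (limma adjusted p = 0.0701), and without HFD 9 months replicate 1 limma called it lower. Serpind1, the heparin cofactor II gene, had changes of -0.29 ± 0.22 and 0.06 ± 0.22. Of the fibrinolysis genes, Plg, which encodes the precursor of plasmin, had changes of -0.35 ± 0.30 and -0.17 ± 0.30. Cpb2, whose carboxypeptidase protects fibrin from plasmin, had changes of 0.19 ± 0.22 and 0.63 ± 0.22 (limma adjusted p = 0.13 at 9 months). Under normexp and in the authors' deposited table limma called Cpb2 higher at 9 months.

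Set side by side, the median of the genes' changes by diet was higher for complement than for coagulation. When each array was summarised, the order was kept with gene-centred levels but not with median levels. The complement median at 3 months was negative as reported and positive under 3 other scalings. At 3 months the median was -0.15 for complement and -0.32 for coagulation, while that of all features was -0.01. It was 0.20 and -0.01 after quantile normalization, 0.20 and -0.06 after normexp correction, and 0.22 and -0.004 in the authors' deposited table of values. The number of the 38 genes lower on HFD at 3 months was 27, but 18, 17 and 16 under those 3 scalings. Of the 18 coagulation genes 15 were lower at 3 months as reported, but 10, 10 and 9 under the same 3 scalings. Without overlap 14 were lower, against 35.4% of all features. At 9 months the medians were 0.19 for complement and -0.15 for coagulation, and over both durations 0.08 and -0.25. Complement minus coagulation came to 0.17, 0.34 and 0.33 in these comparisons. Without the C1q genes the complement median was -0.27 at 3 months, close to that of coagulation (-0.32). It was then 0.19 at 9 months and 0.05 over both durations. Between 9 and 3 months the order was reversed on ND (-0.30 for complement and -0.17 for coagulation). On HFD it was kept (0.15 and -0.07). Taken instead from median levels, complement lay below coagulation by 1.65 and 1.75 on the HFD arrays of 3 months, against 1.39 and 1.48 on the ND arrays. At 9 months it lay below by 1.43 and 2.00 on the HFD arrays, against 1.67 and 1.72 on the ND arrays. HFD minus ND was then -0.26 at 3 months and -0.018 at 9 months, a summary added after seeing the data. At 9 months the HFD arrays lay on either side of the ND arrays. By gene-centred levels, also added after seeing the data, HFD minus ND was 0.19 at 3 months and 0.21 at 9 months. By the medians of the genes' changes, the 9-month difference of 0.34 was -0.02 without HFD 9 months replicate 1. No test was made over the list, and the order of the arms is a description of these arrays.

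**Figure D5:**
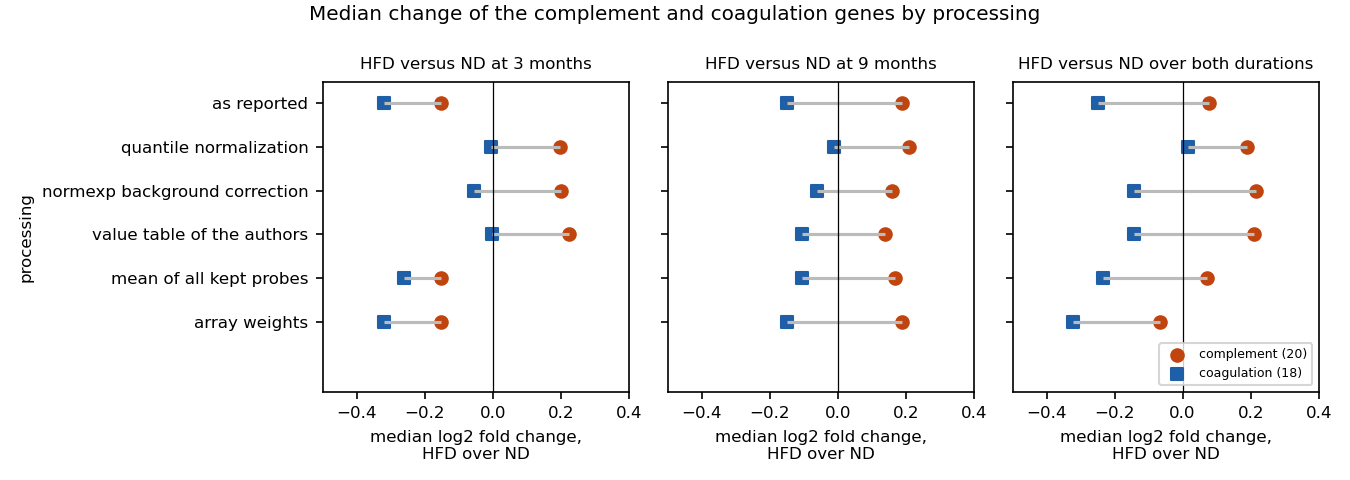
Median log2 fold change, HFD over ND, of the 20 complement genes (circles) and 18 coagulation genes (squares) at 3 months, at 9 months and over both durations, under 6 ways of processing. The circle lies right of the square in every row, an order kept by gene-centred levels of the arrays but not by their median levels. The complement median at 3 months is -0.15 as reported and 0.20 after quantile normalization.

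Most hepatocyte markers, like most coagulation genes, had lower values on HFD at 3 months under the reported scaling. Of 19 measured of 20 listed, 18 were lower on HFD at 3 months (median -0.52, 0 called) and 13 at 9 months (median -0.18, with Tat called lower). Their summed level was 13.27 and 13.28 on HFD, against 13.73 and 13.93 on ND, at 3 months, and 13.14 and 13.87 against 13.63 and 13.70 at 9 months. None was listed at 0, and the part of hepatocyte content or of scaling in the coagulation values was not tested. Of 15 transcription factors of liver, Hnf4a, a master regulator of hepatocyte genes, fell over both durations by 0.64 ± 0.13 (limma adjusted p = 0.0155). Its level was 7.48, 7.15, 7.41 and 7.48 on the HFD arrays, against 7.87, 7.85, 8.17 and 8.17 on the ND arrays. Onecut1 fell as well (-1.76 ± 0.49, limma adjusted p = 0.042), and 0 of the 15 rose, so that 2 of 15 fell where 11.8% of all features did. Of 17 acute phase genes, which inflammation raises in liver, Serpina3n rose at 3 months (1.67 ± 0.32, limma adjusted p = 0.0419) and Serpina3m fell (-1.12 ± 0.19, limma adjusted p = 0.0329), 1 of 17 in each direction against 1.51% of all features higher and 3.67% lower. Serpina3m also fell at 9 months (-1.06 ± 0.19, limma adjusted p = 0.0293).

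Between 9 and 3 months F11 on ND was the only call among the 38 genes. On ND 1 of 38 passed, against 1.04% of all features (0.441% higher and 0.595% lower), and on HFD limma called 0, against 0.00992% (0.00496% higher and 0.00496% lower). With an unadjusted p under 0.05 there were 7 of 38 on ND and 5 of 38 on HFD, against 15.9% and 15.5% of all features. On ND 29 of 38 were lower at 9 than at 3 months (median -0.21, against -0.07 for all features), 19 of them without overlap. On ND 6 were higher without overlap, and of all features 60.5% had no overlap (23.4% higher and 37.1% lower). On HFD 19 were lower and 19 higher (median 0.06), with 7 higher and 7 lower without overlap, against 44.3% of all features (21% higher and 23.3% lower). The C1q genes were higher at 9 months on ND, by 2.00 ± 0.63, 1.88 ± 0.61 and 1.67 ± 0.56 for C1qa, C1qb and C1qc (limma adjusted p = 0.21, 0.217 and 0.232). On HFD their changes were 0.28 ± 0.63, 0.35 ± 0.61 and 0.76 ± 0.56. C8b had a change of -0.85 ± 0.18 on ND (limma adjusted p = 0.098) and 0.44 ± 0.18 on HFD. For the difference between the effects of diet at 9 and at 3 months limma called 0 of 38 genes and 0% of all features. Unadjusted p values were under 0.05 for 2 of 38, C8b and F11, and for 7.62% of all features.

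Other genes of both systems were taken from wider lists. Of 30 measured of 36 other complement genes, 0 were called at 3 months by limma, 1 at 9 months and 5 over both durations, all higher on HFD, against 1.51%, 3.56% and 10.3% of all features called higher. C5ar1, the C5a receptor of myeloid cells, was called at 9 months (limma adjusted p = 0.0322). It was well above background on both HFD arrays and not well above background on either ND array of 9 months. For a bound, the ND side was set at the lowest signal well above background on its arrays. Under the reported scaling C5ar1 was then at least 2.18-fold higher on HFD. Over the other settings its log2 change ranged from 0.71 to 3.36, so the bound does not hold for every scaling. The call was kept in 3 of 8 cases with an array left out and in 8 of 12 other settings, and ended with no filter on dim probes, a floor on dim values, array weights, or only the contrast's arrays. The 5 were Colec10 and Colec11, collectins of the lectin pathway (1.05 ± 0.27 and 1.00 ± 0.20), Cd93, a receptor of endothelial and myeloid cells (1.00 ± 0.22), Cr1l, a cell surface inhibitor (0.56 ± 0.16), and C1rl (0.39 ± 0.11). Colec11 had 4.51, 4.37, 4.63 and 4.03 on the HFD arrays, against 3.35, 3.53, 3.65 and 3.03 on the ND arrays, without overlap. With an array left out, these 5 calls held in 1 (C1rl) to 7 (Colec11) of 8 cases. Colec11 is also on the list of stellate cell markers, of which 11 of 11 measured were higher on HFD at each duration, with summed levels of 6.82 to 7.21 on HFD, against 6.36 to 6.86 on ND.

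Of 28 measured of 35 other coagulation and fibrinolysis genes, 0 were called at 3 months by limma and 8 at 9 months, 7 higher and 1 lower, against 3.56% of all features higher and 4.73% lower at 9 months. Among those higher at 9 months, Plaur, the urokinase receptor gene, rose by 1.89 ± 0.33 and Tfpi, the inhibitor of the tissue factor pathway, by 1.60 ± 0.30. F3, tissue factor itself, rose by 0.89 ± 0.20, F8, the factor VIII gene, by 1.13 ± 0.23, the thrombin receptor gene F2r by 1.21 ± 0.26 and Gas6, a vitamin K-dependent ligand, by 1.33 ± 0.29. Itih2, which encodes a chain of inter-alpha-trypsin inhibitor, fell by 0.96 ± 0.20. Over both durations limma called F8, Tfpi, Plaur, F2r and Gas6 higher and Itih2 and Pzp lower, against 10.3% and 11.8% of all features. Tfpi and Gas6 were called over both durations with each of the 8 arrays left out and in 12 of 12 other settings. Plaur was no longer called at 9 months in 6 of 12 other settings, among them normexp correction and the authors' deposited table, with changes down to 0.31. Over both durations its call was lost in those 2 settings, with changes down to 0.25. The calls at 9 months held in 0 (F2r) to 5 (Plaur) of 8 cases with an array left out, and the mean of all probes of F8 gave a change of -0.003 over both durations. Of the 15 endothelial markers, 11 were higher on HFD at 9 months, with summed levels of 6.65 and 6.79 on HFD, against 6.33 and 5.97 on ND. All 4 adipocyte markers measured of 8 listed were higher there (median change 3.47, 3 called). Their summed levels at 9 months were 8.88 and 8.63 on HFD, against 5.66 and 5.73 on ND. At 3 months 3 of the 4 were higher (median change 1.64). The summed level was then lower on HFD (9.34 and 9.26) than on ND (9.57 and 9.63). At 9 months all 5 platelet markers measured of 10 were higher (median 0.95, 0 called), with 2.19 and 4.11 on HFD, against 2.30 and 1.33 on ND. Of the macrophage markers 12 of 18 were higher (4 called), and of the stellate markers 11 of 11 (median 0.95, 3 called). The part of these cell types in the values above was not tested.

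Promoters of 29 of the 38 genes were in the RefSeq table (C1qa, C2, C4b, Masp1, Cfb, Cfi, Kng1, Proc and Plg were not matched), and 5 motifs were counted in them on both strands as a description of their letters. The C/EBP motif TTGCNNAA was in 7 of 15 coagulation promoters (F11, Klkb1, F9, Fga, Fgb, Serpinc1 and Cpb2) and in 4 of 14 complement promoters (C1ra, C1s1, C3 and C9), against 10.8% of 27025 promoters. The HNF1 core GTTAAT was in 4 of 15 and 4 of 14, against 7.2%, and the STAT motif TTCNNNGAA in 3 of 15 and 3 of 14, against 8.47%. C1ra, Fga and Fgb held all 3 of these motifs. The HNF4 motif CAAAGTCCA (0.477% of promoters) was in 0 of 29. These motifs are different strings that may overlap in a window, and matching was by letters alone.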

How the data were processed

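Total RNA of 8 mouse livers was labelled with Cy3 and hybridised to 1-colour Agilent arrays. Spot intensity was extracted with Agilent Feature Extraction 10.7.1.1, per the submitters' processing notes, and the deposited processed intensity is background-subtracted, per the file headers. The authors also deposited a table of log2 values, whose scaling is not given in the sources used here. Its column medians are 7.14, it ranks spots as the median signal does, and it served as an alternative. Here 3671 control spots and spots with an outlier flag were left out, replicate spots were averaged (55681 probes), and each array's 75th percentile was subtracted from log2 processed intensity with no pseudocount. A probe was kept if at least 0.5 of its spots were well above background on both arrays of a group (25801 probes), and the brightest kept probe stood for a gene, leaving 20165 features. Accessions were matched to 19752 symbols. limma 3.58.1 (R 4.3.3) was fitted to all features over the 4 group means, with diet and duration as terms for both durations together, and Benjamini-Hochberg adjustment at 0.05. The fit was tested on simulated data. Genes were named by role, with values for those called and for those with the widest changes in each arm. The members and lists were chosen with earlier results of these data known. Samples of a group are separate mice by their labels, and their number limits the precision. Replicate numbers did not pair the samples: deviations of same-numbered arrays correlated at -0.02 to 0.14. The values of 1 gene of the wider coagulation list are not reported here.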

Additional observations from a re-analysis of the deposited data

Results flagged for a closer look

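For 2 of the 38 genes, both HFD mice lay on one side of both ND mice at 3 months and on the other side at 9 months. These were C2, with a difference between the diet effects of 0.51 (limma adjusted p = 0.695), and F11, with 1.49 (limma adjusted p = 0.372). The same was seen for 4.17% of all features. For 3 genes the 2 diets moved in opposite directions between 9 and 3 months without overlap. These were C2 (0.51), C8b (1.30, limma adjusted p = 0.355) and Serpinc1 (0.89, limma adjusted p = 0.681), against 5.59% of all features. No difference passed the test.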

How the results depend on the processing

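With 2 mice per group and diet on separate slides, calls depended on the setting, and the cause was not tested. The counts of called genes below are for the complement and coagulation list only. The share of all features called in the same setting is not given beside them. A higher or lower count therefore does not show that these genes differed from all features in that setting. At 3 months 1 gene was called, but 2 under quantile normalization, normexp, the authors' deposited table, or trend and robust moderation, 4 with array weights, 5 with only the contrast's arrays, and 0 with no filter on dim probes. At 9 months 0 were called, but 1 under quantile normalization, 3 under normexp and the authors' table, 2 with trend and robust moderation, and 2 without both 9-month arrays that stood apart (chosen after seeing the data). For 9 against 3 months on ND 1 was called, but 2 with trend and robust moderation, 3 with array weights, and 0 with no filter, only the contrast's arrays, or the replicate block. Over both durations 4 were called, but 7 under quantile normalization and normexp, 10 in the authors' table, 8 with trend and robust moderation, 9 with array weights, 9 without both doubted arrays, 2 with the replicate block and 1 with no filter. With each array left out the counts ranged from 0 to 3 at 3 months, 0 to 2 at 9 months, 0 to 1 on ND, 0 to 2 on HFD and 1 to 11 over both durations, the 11 without HFD 9 months replicate 2. Complement minus coagulation then ranged from 0.129 to 0.180 at 3 months, -0.018 to 0.358 at 9 months, 0.257 to 0.368 over both durations, -0.12 to 0.17 for the difference between diet effects, -0.133 to 0.040 on ND, and -0.0700 to 0.355 on HFD. Under quantile normalization it was 0.204 at 3 months, 0.219 at 9 months, 0.174 over both, 0.014 for the difference, -0.044 on ND and 0.142 on HFD. Under normexp it was 0.255, 0.221, 0.357, 0.0089, -0.069 and 0.248 in that order. In the authors' table it was 0.228, 0.245, -0.053 for the difference and -0.030 on ND, and with the mean of all probes 0.109, 0.275, -0.065 and -0.074. It was 0.256 over both durations with array weights, and 0.384 at 9 months and 0.249 over both without both doubted arrays. A further pair of summaries was added after seeing the data. By median levels it was -0.258, -0.018 and -0.138 at 3 months, at 9 months and over both, and by gene-centred levels 0.193, 0.214 and 0.203. The SD between replicate arrays was 0.208 for the level summary and 0.026 for the centred one, so neither is given as the error of the difference. The change of C1qc at 9 months ranged from -0.14 without ND 9 months replicate 2 to 1.47 without ND 9 months replicate 1. The difference between diet effects gave 0 calls in every setting run. With no filter on dim probes (37084 features) the median change of all features was 0.25 at 3 months, 0.30 at 9 months and 0.26 over both durations.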
